A study of Mus musculus with 12 samples.

Results

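The BCL2 family holds the genes that decide whether the outer membrane of mitochondria stays closed or opens in a cell under stress. The 10 members described here were chosen by symbol from among 35907 genes measured in mouse T cells, and all 10 were found. They are the survival genes or guardians Bcl2, Bcl2l1 (BCL-XL), Mcl1 and Bcl2a1b (A1), the pore formers Bax and Bak1, and the BH3-only genes Bcl2l11 (BIM), Bad, Bid and Bbc3 (PUMA). RNA was sequenced in 12 libraries of splenic donor T cells, 3 in each of 4 groups: WT Pre-Tx, TCF-1 cKO Pre-Tx, WT Post-Tx and TCF-1 cKO Post-Tx. TCF-1 cKO mice carry a floxed Tcf7, the gene of the transcription factor TCF-1, and a Cre recombinase driven by the Cd4 promoter, which is active while thymocytes carry both coreceptors, so the deletion would reach the CD4 and CD8 lineages alike. WT mice carry an intact Tcf7. Pre-Tx cells were sorted from spleens of donor mice on a C57BL/6 background, and Post-Tx cells were donor cells recovered at day 7 from spleens of irradiated BALB/c recipients, a model of graft-versus-host disease in which donor cells meet foreign MHC. All recipients also received marrow depleted of T cells. The labels call every sample CD4 T cells, whereas the design text names CD8 cells before transplant and CD4 and CD8 cells at day 7. The groups hold no mice with Cre alone. The design text speaks of 3 mice of each genotype before transplant, and whether day 7 libraries came from separate recipients is not given, so p-values may there measure technical spread.

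In the mitochondrial pathway of apoptosis, Bax and Bak1 make proteins that assemble into pores through which cytochrome c leaves the mitochondria. Guardian proteins bind and hold the pore formers and the BH3-only proteins, and the BH3-only proteins carry stress signals by occupying the guardians or by activating Bax and Bak1. In T cells, Bcl2 and Mcl1 are known for keeping resting cells alive, Bcl2l1 and Bcl2a1 genes for their rise on activation through the T cell receptor, and Bcl2l11 for the death of activated cells once antigen and cytokine fade.

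Members of the family share the BH3 stretch, a short helix by which the proteins bind each other, and its coding sequence is shown because it is what ties guardians and death genes to 1 family. A leucine, any 3 residues, a glycine and an aspartate were searched for in the leading coding transcript of each member, using the coding sequence of GENCODE M21 on GRCm38. The letters were found once in each of 7 of the 10 members, and the other 3 were Bcl2a1b (chr9:89199209-89207827, plus strand), Bad (chr19:6941861-6951899, plus strand) and Bbc3 (chr7:16308393-16318205, plus strand). Capitals mark the codons of the leucine, the glycine and the aspartate, and each stretch lies within 1 coding exon and is written on the strand of its gene.
Bcl2, exon 1, chr1:106712575-106712610, minus strand: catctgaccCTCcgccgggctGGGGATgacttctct
Bcl2l1, exon 2, chr2:152829697-152829732, minus strand: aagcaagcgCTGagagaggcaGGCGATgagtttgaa
Mcl1, exon 1, chr3:95659427-95659462, plus strand: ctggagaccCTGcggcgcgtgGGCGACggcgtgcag
Bax, exon 3, chr7:45465997-45466032, minus strand: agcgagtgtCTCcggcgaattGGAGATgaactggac
Bak1, exon 4, chr17:27022531-27022566, minus strand: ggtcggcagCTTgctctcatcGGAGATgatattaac
Bcl2l11, exon 3, chr2:128147141-128147176, plus strand: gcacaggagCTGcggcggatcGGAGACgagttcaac
Bid, exon 4, chr6:120897289-120897324, minus strand: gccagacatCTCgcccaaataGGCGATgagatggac

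Total estimated counts ranged from 17103415 to 49486745 per library. Tcf7 did not check the genotype, since whole transcripts were counted and the floxed part was not counted apart: its CPM, counts scaled to the library total, were 112 to 198 (WT) and 136 to 179 (TCF-1 cKO) before transplant, and 145 to 171 (WT) and 109 to 146 (TCF-1 cKO) at day 7. The fitted log2 fold change of Tcf7 was -0.04 before transplant (adjusted p = 0.924) and -0.66 at day 7 (adjusted p = 0.0669, both from edgeR's quasi-likelihood test). Genotypes are therefore given as labelled. The Pre-Tx libraries went against a pure T cell label: Cd79a of the B cell receptor stood at 2055 to 2563 CPM, above Cd3e of the T cell receptor complex at 106 to 310 CPM, and Cd8a at 71.4 to 166 CPM overlapped with Cd4 at 65.4 to 151 CPM. At day 7, Cd79a stood at 1.46 to 3.596 CPM, Cd3e at 461 to 774 CPM, Cd4 at 709 to 1164 CPM and Cd8a at 1.04 to 15.4 CPM. Bulk RNA cannot tell fewer cells of a type from less RNA per cell, and this holds for every value below.

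Levels are compared between members in TPM, a unit that corrects for transcript length. Bax was the highest member in WT Pre-Tx at 183 ± 7.58 TPM (mean ± SD, n = 3), in TCF-1 cKO Pre-Tx at 179 ± 34.3 TPM and in TCF-1 cKO Post-Tx at 264 ± 34.7 TPM. In WT Post-Tx, Bcl2a1b at 317 ± 56.4 TPM stood above Bax at 298 ± 8.13 TPM, and the libraries of these 2 genes overlapped there and in TCF-1 cKO Post-Tx. Bak1, the other pore former, was the lowest member in all 4 groups, between 1.66 and 5.81 TPM, and its libraries did not overlap with those of the next gene in any of them. Most of that small signal came from transcripts marked for nonsense-mediated decay: Bak1-202, the leading coding transcript, took 2.52% to 10.1% of Bak1 TPM in the group means.

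Among the chosen guardians, Bcl2a1b was the highest in all 4 groups. The order of the other chosen guardians differed between the Pre-Tx groups and was shared by the day 7 groups. In WT Pre-Tx, Bcl2l1 (16.6 TPM), Mcl1 (13.2 TPM) and Bcl2 (9.18 TPM) followed each other and overlapped. In TCF-1 cKO Pre-Tx, Mcl1 stood at 35.3 ± 6.82 TPM, above the libraries of Bcl2 at 18.7 ± 6.58 TPM. At day 7, Bcl2l1 was the second guardian in both genotypes, at 44.8 ± 4.22 TPM in WT and 37.5 ± 4.39 TPM in TCF-1 cKO, and Mcl1 and Bcl2 stood between 16.0 and 20.6 TPM. Among BH3-only genes, Bad and Bid had the higher levels in every group, from 28.4 to 60.8 TPM, and Bcl2l11 and Bbc3 the lower ones, from 6.09 to 18.4 TPM.

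Summed over the classes, guardians stood below pore formers in every WT Pre-Tx library and above them in every Post-Tx library. The ratio of guardian TPM to pore former TPM before transplant was 0.409, 0.5998 and 0.421 for WT libraries and 1.15, 0.843 and 0.874 for TCF-1 cKO libraries. At day 7 it was 1.13, 1.29 and 1.495 in WT and 1.08, 1.05 and 1.18 in TCF-1 cKO. The Pre-Tx genotypes did not overlap, and the day 7 genotypes did. A single gene weighed most in these sums, since Bcl2a1b took 55.5% ± 2.91 of guardian TPM in WT Pre-Tx and 79.5% ± 2.11 in WT Post-Tx. The sums leave out the other related copies of Bcl2a1b, so the sizes of the ratios and their place relative to 1 depend on that choice. With Bcl2a1b, the copies together had 85.6 (WT) and 175 TPM (TCF-1 cKO) before transplant, and 546 and 419 TPM at day 7. Ratios with all copies were not computed. Without Bcl2a1b, the ratio at day 7 was 0.265 ± 0.0193 in WT and 0.279 ± 0.0433 in TCF-1 cKO, close to the 0.211 ± 0.0382 of WT Pre-Tx and below the 0.387 ± 0.0820 of TCF-1 cKO Pre-Tx. The ratio of guardian to BH3-only TPM was 0.891 ± 0.0982 for WT and 1.48 ± 0.245 for TCF-1 cKO before transplant, and 3.10 ± 0.327 and 2.87 ± 0.478 at day 7. Without Bcl2a1b it was 0.396 ± 0.0355 and 0.599 ± 0.123 before transplant, and 0.632 ± 0.0550 and 0.732 ± 0.199 at day 7, where TCF-1 cKO had the higher mean and the libraries overlapped. These ratios are descriptions with no test.

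**Figure D1:**
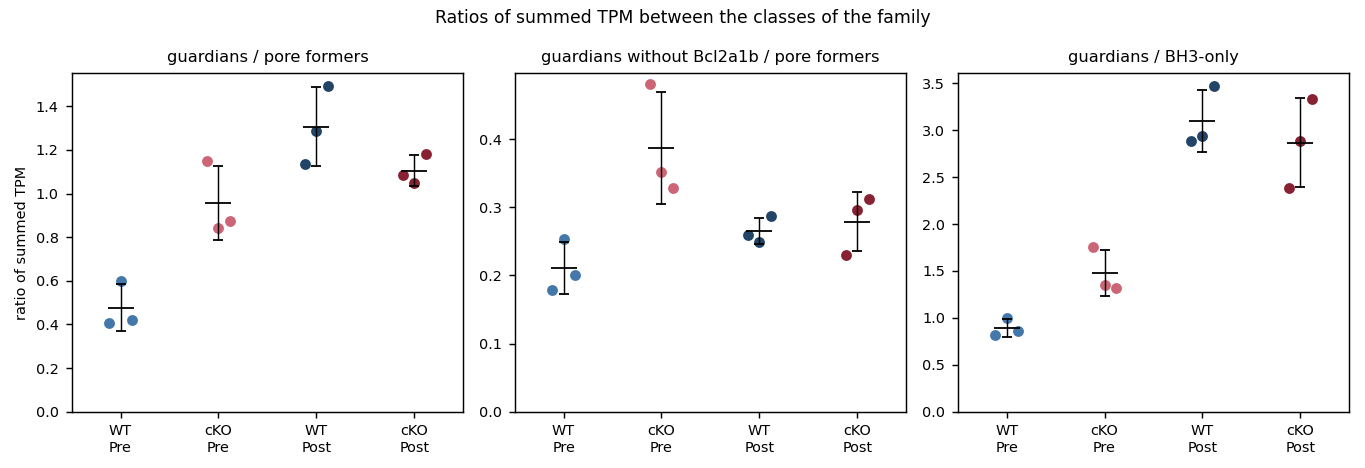
Ratios of summed TPM per library (y axis, no unit) for guardians over pore formers, guardians without Bcl2a1b over pore formers, and guardians over BH3-only genes, in the 4 groups (x axis); points are libraries, and bars are the mean and SD of 3. The first ratio lay between 0.409 and 0.5998 in WT Pre-Tx and between 1.05 and 1.495 at day 7, and without Bcl2a1b the day 7 values lay between 0.230 and 0.312. The guardian sums leave out the other related copies of Bcl2a1b.

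Before transplant, TCF-1 cKO libraries held more RNA of Mcl1 and Bcl2, the guardians of resting T cells, and less of Bad, a BH3-only gene that binds BCL2 and BCL-XL. Of 14 alternative settings, the call of Mcl1 held in 11, that of Bcl2 in 6 and that of Bad in 2, DESeq2 and upper-quartile scaling, and Bad did not pass with any 1 of the 6 libraries left out. Mcl1 stood at 52.2, 61.9 and 37.2 normalized CPM in WT and at 105, 155 and 125 in TCF-1 cKO, where normalized CPM are CPM divided by TMM factors set over all 12 libraries, whereas the genotype fits set theirs within each stage. Every TCF-1 cKO library was above every WT library, and the log2 fold change was 1.19 (standard error, SE, 0.26, adjusted p = 0.0167, edgeR's quasi-likelihood test over 17021 genes). Bcl2 stood at 49.3, 68.8 and 34.3 normalized CPM in WT and at 151, 110.2 and 82.0 in TCF-1 cKO. These groups did not overlap either, the TCF-1 cKO libraries spread widely, and the log2 fold change was 1.03 (SE 0.31, adjusted p = 0.0483, same test). Bad stood at 50.9, 56.9 and 54.3 normalized CPM in WT and at 29.3, 33.3 and 37.1 in TCF-1 cKO, again with no overlap, and its log2 fold change was -0.89 (SE 0.27, adjusted p = 0.0460, same test).

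The other 7 members did not pass before transplant. Bcl2a1b was at 27.0, 40.3 and 28.2 normalized CPM in WT Pre-Tx and at 53.6, 62.7 and 66.9 in TCF-1 cKO Pre-Tx, which did not overlap, with a log2 fold change of 0.76 (95% interval 0.16 to 1.36, adjusted p = 0.0797). Bcl2l11 was at 26.7, 27.0 and 20.9 in WT and at 34.2, 66.9 and 44.0 in TCF-1 cKO, also apart, with a log2 fold change of 0.79 (interval 0.06 to 1.52, adjusted p = 0.124, edgeR's quasi-likelihood test for both). Bid, which caspase cleavage turns into an activator of Bax and Bak1, was at 74.3, 104.9 and 61.1 in WT and at 91.4, 145 and 176 in TCF-1 cKO, and these overlapped. The log2 fold changes of Bax, Bak1, Bcl2l1 and Bbc3 lay between -0.46 and -0.16, and their groups overlapped. Bcl2, Mcl1, Bcl2a1b, Bcl2l11 and Bad, apart before transplant in normalized CPM, were apart in CPM and TPM too. The share of all genes that were apart before transplant was not counted.

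Of all genes tested before transplant, 8.52% passed as higher and 5.65% as lower in TCF-1 cKO, and of the 10 members 2 passed as higher and 1 as lower. The median log2 fold change was 0.22 over the members and -0.11 over all genes tested. Mcl1 alone passed under voom and limma, under an offset for transcript length and with scaling to library totals, and no member passed without TCF-1 cKO Pre-Tx replicate 2, WT Pre-Tx replicate 1 or WT Pre-Tx replicate 3. The mix of transcripts of other cells differed between these groups as well. Summed over its list, 10 T cell markers took 1598 to 1784 CPM of TCF-1 cKO libraries and 2761 to 3224 CPM of WT libraries, and 10 B cell markers took 9234 to 9927 CPM and 7724 to 8860 CPM. In TCF-1 cKO Pre-Tx, 8 of the 10 B cell markers, 6 of 6 NK cell markers and 6 of 6 proliferation markers had the higher mean, and 8 of the 10 T cell markers the lower mean. No marker of these lists was at 0 throughout a Pre-Tx group. Their part in the differences of Mcl1, Bcl2 and Bad was not tested.

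At day 7 after transplant the only member called was Bcl2a1b, with less RNA in TCF-1 cKO than in WT donor cells. The call held in 6 of 15 alternative settings, and it did not hold in the 1 that summed the related copies of Bcl2a1b. Every member had a fold change below 0, except that Mcl1 stood at 0.02 with scaling to library totals, and 5 of the 10, Bad among them, had one below 0 before transplant too. In the reported fits, 10155 of 19287 genes tested at day 7 had a fold change above 0, as had 7862 of 17021 before transplant. Bcl2a1b, a guardian known as a target of NF-kB in activated lymphocytes, stood at 156, 147 and 233 normalized CPM in WT Post-Tx and at 112, 72.5 and 85.4 in TCF-1 cKO Post-Tx. On this scale the libraries did not overlap, and the log2 fold change was -0.84 (SE 0.24, adjusted p = 0.0452, edgeR's quasi-likelihood test over 19287 genes). Bcl2l11, the death gene of activated T cells, was also apart, at 77.9, 73.5 and 86.6 in WT and at 43.8, 39.8 and 43.3 in TCF-1 cKO, with a log2 fold change of -0.76 that did not pass (SE 0.24, adjusted p = 0.0563). Bbc3, a target of p53, was at 15.3, 15.3 and 24.4 in WT and at 10.97, 5.28 and 5.36 in TCF-1 cKO, with no overlap and a log2 fold change of -1.20 (SE 0.43, adjusted p = 0.0801, same test for both).

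Of the other members, Bcl2l1 ranged from 75.1 to 115 normalized CPM in WT and from 50.01 to 62.5 in TCF-1 cKO, with a log2 fold change of -0.62 (adjusted p = 0.0974), and Bid from 59.0 to 79.9 and from 30.5 to 52.2, with a log2 fold change of -0.67 (adjusted p = 0.104). Bax ranged from 153 to 208 in WT and from 99.1 to 143 in TCF-1 cKO, with a log2 fold change of -0.52 (adjusted p = 0.128, edgeR's quasi-likelihood test for all 3). In normalized CPM, Bcl2l1, Bcl2a1b, Bax, Bcl2l11, Bid and Bbc3 were apart between the genotypes. Bcl2l1 and Bcl2l11 were apart in CPM and in TPM as well. The share of all genes that were apart at day 7 was not counted. Bcl2a1b overlapped in CPM (134 to 191 in WT, 105 to 135 in TCF-1 cKO) and in TPM, and so did Bax, Bid and Bbc3. Bcl2, Mcl1, Bad and Bak1 overlapped on every scale, with log2 fold changes from -0.54 to -0.38.

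Among all genes tested at day 7, 3.52% passed as higher and 3.13% as lower in TCF-1 cKO, and of the 10 members none passed as higher and 1 as lower. An unadjusted p under 0.05 was found for 6 of the members and for 32.1% of all genes tested. DESeq2 passed 3 members as lower, Bcl2a1b, Bcl2l11 and Bbc3, and 9.25% of all genes, and voom and limma passed these 3 and 6.73% of all genes. The median log2 fold change was -0.58 over the members and 0.09 over all genes tested. The sizes moved with the scaling. The TMM factors of the day 7 fit were 1.07 to 1.23 in TCF-1 cKO and 0.8075 to 0.963 in WT, and scaling to library totals moved the median of all genes by 0.395 on the log2 scale and left no member past the threshold. On the TPM scale, which uses no such factor, Bcl2 stood at 19.3 ± 0.869 in WT Post-Tx and 20.6 ± 4.54 in TCF-1 cKO Post-Tx, and Mcl1 at 16.5 ± 2.06 and 16.0 ± 2.76. No member passed without TCF-1 cKO Post-Tx replicate 2 or 3 or WT Post-Tx replicate 1 or 3. In TCF-1 cKO Post-Tx, summed proliferation markers took 1287 to 1538 CPM against 999.7 to 1190 CPM in WT Post-Tx, T cell markers 5410 to 5674 CPM against 7051 to 8515 CPM, and red cell markers 1645 to 5745 CPM against 709 to 1481 CPM. Summed CD8 markers took 55.9 to 57.6 CPM against 20.5 to 42.3 CPM, and 10 of 10 markers of macrophages, monocytes and neutrophils and 9 of 10 B cell markers had the higher mean in TCF-1 cKO. Klra8, an NK cell marker, was at 0 in every WT Post-Tx library. Their part in the day 7 differences was not tested.

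**Figure D2:**
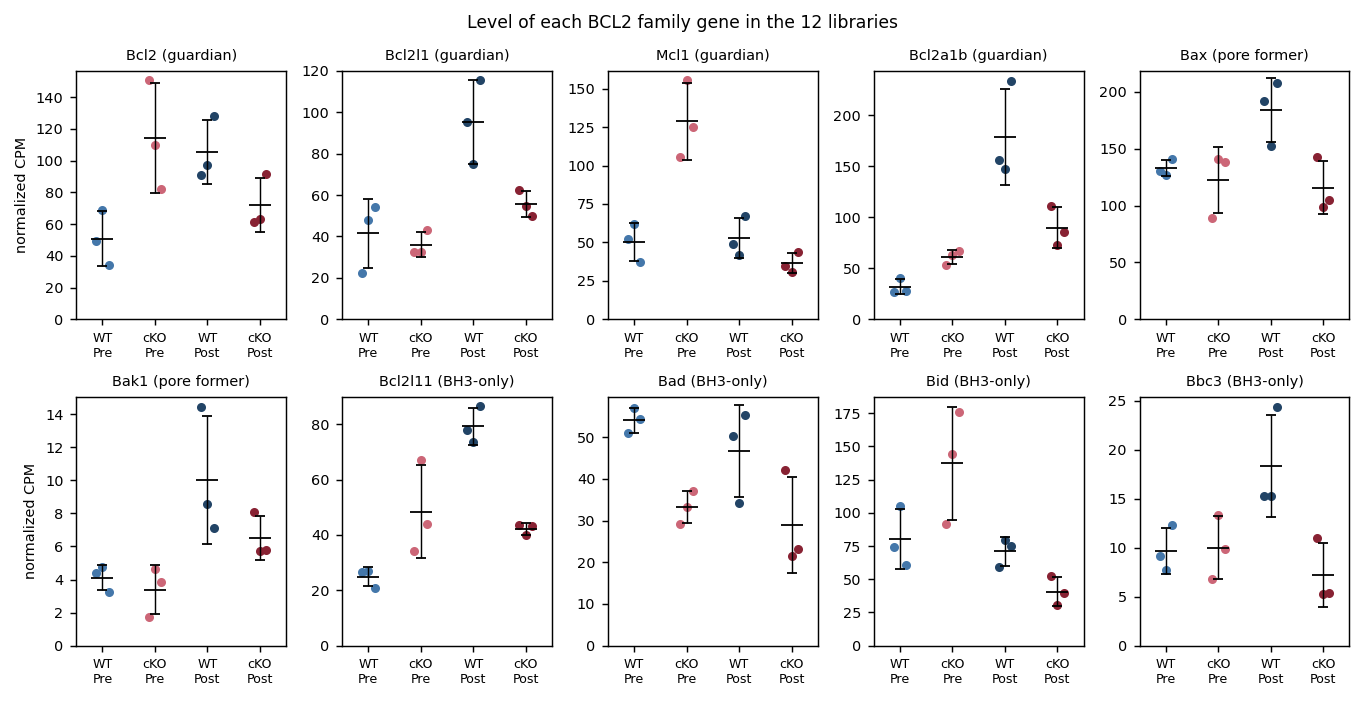
Normalized CPM (y axis, from 0) of each of the 10 genes in the 4 groups (x axis), with 1 point per library and bars for the mean and SD of 3. Mcl1 is highest in TCF-1 cKO Pre-Tx, at 105 to 155, and Bcl2a1b reaches 147 to 233 in WT Post-Tx against 27.0 to 40.3 in WT Pre-Tx.

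Between donor spleen and day 7, WT libraries gained RNA of the guardians Bcl2a1b, Bcl2l1 and Bcl2 and of Bcl2l11 (BIM). The guardian Mcl1 did not pass. Bcl2a1b and Bcl2l11 passed in every alternative setting, Bcl2l1 in 18 of 20 and Bcl2 in 15 of 20. Bcl2a1b rose by a log2 fold change of 2.34 (SE 0.26, adjusted p = 6.54e-06), from 27.0 to 40.3 normalized CPM in WT Pre-Tx to 147 to 233 in WT Post-Tx. Bcl2l11 rose by 1.52 (SE 0.28, adjusted p = 0.000858), from 20.9 to 27.0 normalized CPM to 73.5 to 86.6. Bcl2l1 rose by 1.05 (SE 0.30, adjusted p = 0.0202) and Bcl2 by 0.91 (SE 0.29, adjusted p = 0.0338), all from edgeR's quasi-likelihood test on the 12 libraries. The other 6 members did not pass: the log2 fold changes of Bak1 and Bbc3 were 1.13 and 0.76, those of Bax and Mcl1 0.31 and -0.09, and those of Bid and Bad -0.31 and -0.37. Of all 21434 genes tested, 11.6% passed as higher and 10.4% as lower, against 4 and none of the 10 members, and the medians were 0.83 over the members and -0.41 over all genes.

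In TCF-1 cKO cells the same interval showed falls of Mcl1 and Bid. Mcl1 went from 105 to 155 normalized CPM in TCF-1 cKO Pre-Tx to 31.1 to 43.7 in TCF-1 cKO Post-Tx, a log2 fold change of -1.70 (SE 0.27, adjusted p = 0.000299, edgeR's quasi-likelihood test). Bid went from 91.4 to 176 normalized CPM to 30.5 to 52.2, a log2 fold change of -1.64 (SE 0.29, adjusted p = 0.000809, same test). Both falls held under every alternative setting run. Bcl2l1 and Bcl2a1b had log2 fold changes of 0.76 (adjusted p = 0.0686) and 0.68 (adjusted p = 0.0555, same test). Bcl2l1 passed as higher in 7 of 20 alternative settings and Bcl2a1b in 6 of 21. Scaling to library totals was among them for both genes, at 1.25 and 1.16. Bcl2l11 was at 34.2 to 66.9 normalized CPM before and 39.8 to 43.8 after transplant, a log2 fold change of -0.07 (interval -0.65 to 0.51). Of all genes tested, 14.2% passed as higher and 12.5% as lower, against none and 2 of the 10 members, with medians of -0.08 over the members and 0.36 over all genes. Day, host, cell state and the content of B cell transcripts change together between Pre-Tx and Post-Tx in both genotypes and cannot be told apart: the 10 B cell markers took 7724 to 9927 CPM in Pre-Tx and 42.0 to 109 CPM at day 7.

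**Figure D3:**
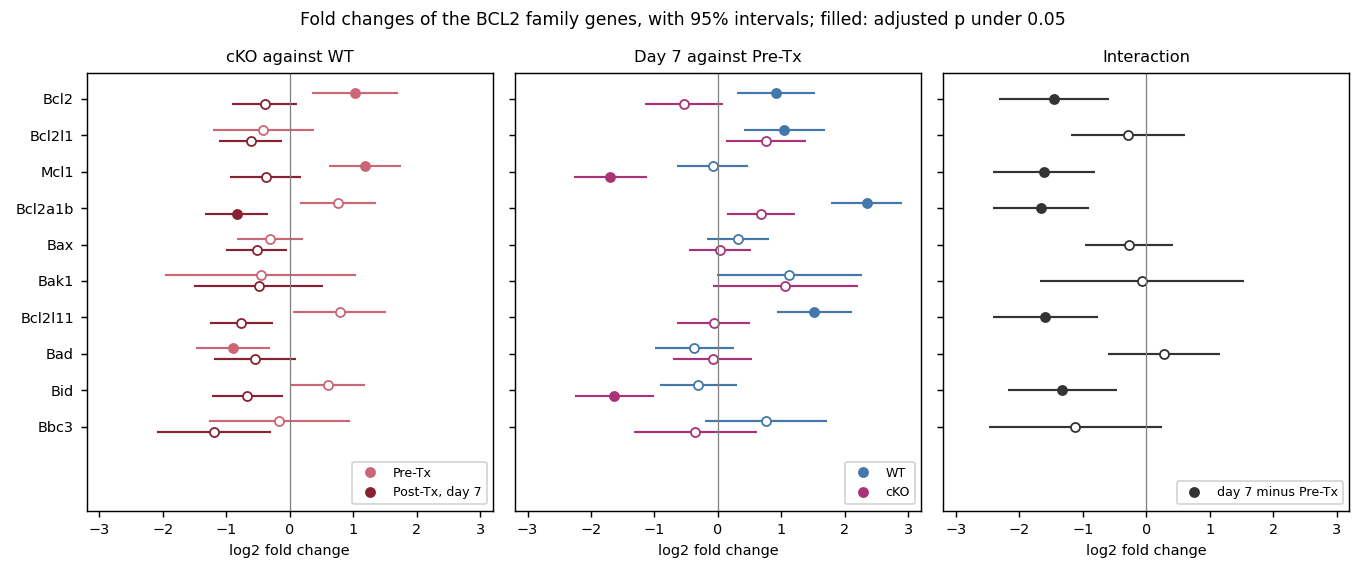
Log2 fold changes (x axis) of the 10 genes (y axis) for TCF-1 cKO against WT at each stage, day 7 against Pre-Tx in each genotype, and the interaction, with 95% intervals as lines and filled points at an adjusted p under 0.05. Before transplant Mcl1 and Bcl2 lie to the right at 1.19 and 1.03, at day 7 all 10 points lie left of 0 (Mcl1 is at 0.02 with scaling to library totals), and 5 of the interaction points are filled, all left of 0. Among all 19287 genes tested at day 7, 10155 had a fold change above 0.

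The genotype difference itself differed between the stages for 5 members. The interaction, which is the day 7 difference minus the Pre-Tx difference, was -1.66 for Bcl2a1b (SE 0.36, adjusted p = 0.00562), -1.61 for Mcl1 (SE 0.38, adjusted p = 0.00831) and -1.59 for Bcl2l11 (SE 0.39, adjusted p = 0.00999). It was -1.45 for Bcl2 (SE 0.41, adjusted p = 0.0184) and -1.32 for Bid (SE 0.41, adjusted p = 0.0258), all as log2 fold changes from edgeR's quasi-likelihood test. Guardians and BH3-only genes were both among the 5. All 5 had a fold change above 0 before transplant and below 0 at day 7, except that Mcl1 at day 7 stood at 0.02 with scaling to library totals. Bbc3 had an interaction of -1.12 that did not pass (interval -2.48 to 0.25). The intervals of Bcl2l1 (-1.18 to 0.61), Bax (-0.97 to 0.42), Bad (-0.60 to 1.17) and Bak1 (-1.67 to 1.54) all included 0.

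Of all genes tested for the interaction, 17.1% passed as higher and 11.5% as lower, against none and 5 of the 10 members, and the medians were -1.22 over the members and 0.37 over all genes. The groups enter several of these comparisons at once: the 3 WT Pre-Tx libraries have the lowest mean normalized CPM of Bcl2, Bcl2a1b and Bcl2l11 and serve as the base both of the genotype difference before transplant and of the WT change with transplant. The count moved with the scaling. Upper-quartile scaling, which moved the median of all genes by 0.661, passed Mcl1 (-0.94) and Bcl2a1b (-0.98), and library totals passed these and Bcl2l11 (-1.19, -1.25 and -1.18). Mcl1 and Bcl2a1b passed under every setting run, including each library left out in turn. Without TCF-1 cKO Post-Tx replicate 2, and likewise without WT Post-Tx replicate 3, 3 members passed, Mcl1, Bcl2a1b and Bcl2l11.

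**Figure D4:**
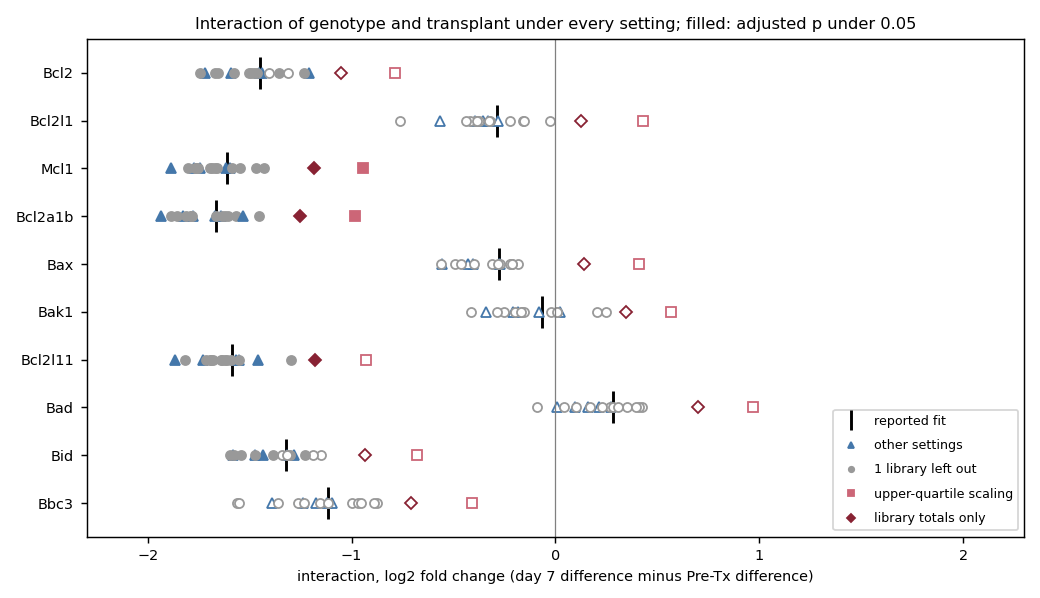
Interaction log2 fold change (x axis) of each of the 10 genes (y axis) under every setting, filled where the adjusted p is under 0.05. Mcl1 and Bcl2a1b are filled in every setting, and upper-quartile scaling (squares) and library totals (diamonds) lie to the right of the reported fit (black strokes) for all 10.

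Bcl2a1b is 1 of 4 related Bcl2a1 copies, and its values are uncertain to the extent that reads fit several of them. Of the 787 stretches of 31 bases in its only transcript, 570 also occur in Bcl2a1d, 446 in Bcl2a1a and 79 in Bcl2a1c, and kallisto divides reads that fit several transcripts among them. With the copies summed to 1 unit, the log2 fold change was 0.75 before transplant (adjusted p = 0.0545), -0.72 at day 7 (adjusted p = 0.0615), 2.33 in WT with transplant (adjusted p = 3.3e-06) and 0.79 in TCF-1 cKO with transplant (adjusted p = 0.0221, all from edgeR's quasi-likelihood test). The day 7 genotype difference of Bcl2a1b was therefore not past the threshold for the copies together, whereas the TCF-1 cKO rise was, and the interaction kept its place at -1.53 (adjusted p = 0.00585, same test). Bcl2a1b took 53.0% to 58.0% of the TPM of the copies in the group means.

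For Bcl2l1, the split between its leading transcripts stood apart between the genotypes. Its second transcript, Bcl2l1-202, took 0.389% to 29.9% of Bcl2l1 TPM in WT Pre-Tx and 31.8% to 59.4% in TCF-1 cKO Pre-Tx, and 12.1% to 26.5% in WT Post-Tx and 28.9% to 35.9% in TCF-1 cKO Post-Tx. The genotypes did not overlap at either stage. Its first transcript, Bcl2l1-201, moved the other way, at 59.2% to 85.2% and 40.2% to 54.3% before transplant and 64.3% to 79.2% and 44.6% to 59.7% at day 7. Bcl2-201, its leading transcript, took 36.8% to 52.4% of Bcl2 TPM in WT Pre-Tx and 60.3% to 63.1% in TCF-1 cKO Pre-Tx, and 49.9% to 72.3% and 47.4% to 55.3% at day 7. Mcl1 was nearly all Mcl1-201, at 94.9% to 100% in every library. About as much of Bbc3 came from a retained-intron transcript as from the coding Bbc3-201, with group means of 42.6% to 50.5% and 46.9% to 53.6%. These shares come from kallisto's division of reads among overlapping transcripts and were not tested. How many of all genes had transcript shares apart between the genotypes was not counted.

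The rest of the family and its partners were counted from 2 lists. Of 16 other BCL2 family genes, 12 had enough counts before transplant and none passed, with 5 at an unadjusted p under 0.05 against 33.5% of all genes tested. At day 7 none of 14 passed, with 4 at an unadjusted p under 0.05, where all genes gave 32.1%. In WT cells with transplant, 2 of 14 passed as higher and 1 as lower: Bcl2a1d at 2.51 (adjusted p = 1.19e-05), Pmaip1 (NOXA, the BH3-only partner of MCL1) at 2.91 (adjusted p = 0.000542), and Bmf, a BH3-only gene, at -2.96 (adjusted p = 0.00182). In TCF-1 cKO cells, 1 of 14 passed as higher, Bcl2a1d at 1.22 (adjusted p = 0.00609), and 3 as lower, Bmf at -3.14 (adjusted p = 0.00130), Bnip3 at -2.38 (adjusted p = 0.0122) and Bnip3l at -0.84 (adjusted p = 0.0394), the last pair being known for mitophagy. For the interaction, Bnip3l at -1.46 (adjusted p = 0.0161), Pmaip1 at -2.40 (adjusted p = 0.0178) and Bcl2a1d at -1.30 (adjusted p = 0.0267) passed as lower and Hrk, another BH3-only gene, at 3.54 (adjusted p = 0.0486) as higher. All are log2 fold changes from edgeR's quasi-likelihood test. Hrk had little signal, at 0.212 to 3.51 normalized CPM over the 12 libraries. The calls of this list were not followed through the alternative settings. Shares over all genes tested were 11.6% higher and 10.4% lower in WT with transplant. They were 14.2% and 12.5% in TCF-1 cKO, and 17.1% and 11.5% for the interaction.

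Among 20 partners and regulators of the pathway, all 20 were tested in every comparison. Before transplant 5 passed as higher and none as lower: Mdm2, which marks p53 for decay, at 1.90 (adjusted p = 0.00575), Usp9x, a deubiquitinase of MCL1, at 1.83 (adjusted p = 0.0126), Huwe1, a ubiquitin ligase of MCL1, at 1.15 (adjusted p = 0.0198), and Apaf1 of the apoptosome at 1.58 (adjusted p = 0.0249) led them. At day 7 only Stat5a, a transcription factor of cytokine signalling, passed, at -0.80 (adjusted p = 0.0469). The calls of this list were not followed through the alternative settings either. With transplant, WT cells had 8 higher and 1 lower. Among those higher were Apaf1 at 2.49 (adjusted p = 3.13e-05) and Mdm2 at 1.87 (adjusted p = 0.000101). TCF-1 cKO cells had 1 higher and 7 lower over the same interval. Those lower were led by Foxo1, a transcription factor of quiescent T cells, at -1.74 (adjusted p = 0.000149). Casp9, the caspase of the apoptosome, followed at -1.66 (adjusted p = 0.000568). Casp9 was also the gene that was lower in WT, at -0.82 (adjusted p = 0.0473). Next came Ddit3 (CHOP) of the stress response at -1.68 (adjusted p = 0.00338), read from the lower of its 2 gene identifiers. Diablo, which blocks caspase inhibitors, was at -1.0 (adjusted p = 0.00475). For the interaction 9 passed as lower and none as higher, led by Mdm2 at -2.04 (adjusted p = 0.00300), Huwe1 at -1.84 (adjusted p = 0.00404), Apaf1 at -1.81 (adjusted p = 0.00953) and Foxo1 at -1.40 (adjusted p = 0.0126). All are log2 fold changes from edgeR's quasi-likelihood test, and the medians of this list were 0.65 before transplant, -0.48 at day 7 and -1.10 for the interaction. Shares over all genes tested were 8.52% higher and 5.65% lower before transplant, and 3.52% and 3.13% at day 7. With transplant they were 11.6% and 10.4% in WT and 14.2% and 12.5% in TCF-1 cKO. For the interaction they were 17.1% and 11.5%.

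TCF-1 binds DNA at a core of CTTTGA, and the RefSeq promoters of the members, 250 bases before to 50 bases after each start on GRCm38.p6, were searched for it on both strands. All 10 members had at least 1 promoter window, 16 in all. The core was found in 2 of the 10 genes, Bcl2a1b and Bax, each once, against 18.2% of 27025 genes and 16% of 32851 windows. The windows of these genes are shown because 1 of them belongs to a member whose interaction passed and the other to a member whose interaction did not. The first base of the core is at -240 in Bcl2a1b and at -194 in Bax relative to the start, both on the strand of the gene. Capitals mark the core.
Bcl2a1b, chr9:89199023-89199322, plus strand: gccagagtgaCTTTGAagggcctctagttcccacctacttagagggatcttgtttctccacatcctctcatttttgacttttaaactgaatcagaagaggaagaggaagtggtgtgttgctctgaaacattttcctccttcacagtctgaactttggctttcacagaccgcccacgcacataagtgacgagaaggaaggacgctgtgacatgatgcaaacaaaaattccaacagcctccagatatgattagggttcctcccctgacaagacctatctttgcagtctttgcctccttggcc
Bax, chr7:45466849-45467148, minus strand: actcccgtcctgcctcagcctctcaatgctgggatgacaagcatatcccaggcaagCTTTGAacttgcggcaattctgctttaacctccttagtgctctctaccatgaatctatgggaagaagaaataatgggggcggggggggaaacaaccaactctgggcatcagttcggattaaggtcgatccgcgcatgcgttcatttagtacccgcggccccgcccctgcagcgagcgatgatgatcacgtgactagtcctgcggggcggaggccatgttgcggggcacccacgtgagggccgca
The windows of Mcl1, Bcl2, Bcl2l11 and Bid, the other members whose interaction passed, did not hold these letters, which says nothing of sites elsewhere.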

How the data were processed

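Gene expression was taken from the estimated count and TPM per transcript that the authors deposited for each library, made with kallisto 0.46.2 from SMARTseq HT cDNA and Nextera XT libraries. The submitters' processing notes name mm9, and no transcript set is given in sources used here. Of 117497 transcripts per library, 116428 matched GENCODE M21. Counts were summed per gene and rounded. Unmatched transcripts took 0.282% to 0.386% of counts.

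Genes passing filterByExpr were fitted with TMM factors and edgeR 4.0.16 (quasi-likelihood test, R 4.3.3), with Benjamini-Hochberg adjustment over all genes tested and a threshold of 0.05. Genotypes were compared on 6 libraries per stage, and transplant and the interaction on 12. Intervals are 95%. The test was tried on simulated data in which every gene had the same spread and far fewer genes changed than passed here. For a log2 change of 1 the test recovered 15.9% of changed genes before transplant and 12.3% at day 7. Recovery was 12.8% for WT, 5.71% for TCF-1 cKO and 1.09% for the interaction. These shares do not give the power for the members, and a member that did not pass may still differ. Alternatives were DESeq2 1.42.0, limma 3.58.1 with voom, other scalings, no filter, a length offset, a replicate block and libraries left out.

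Members and lists were chosen with earlier results of these data known. All 10 members are named, and of each list the genes that passed, up to 4 by adjusted p, apart from some that are not reported here. BH3 letters were found by translating GENCODE coding sequence. Libraries were not paired by replicate number in the reported fits. Residual correlations between libraries of 1 number ran from -0.273 to 0.253. Between the genotypes at day 7 they were -0.00117, 0.253 and 0.104.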

Additional observations from a re-analysis of the deposited data

Results flagged for a closer look

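The genotype difference differed between Pre-Tx and day 7 for 5 of the 10 members by the interaction term of edgeR's quasi-likelihood test. The interaction log2 fold change was -1.45 for Bcl2, -1.61 for Mcl1, -1.66 for Bcl2a1b, -1.59 for Bcl2l11 and -1.32 for Bid. Pre-Tx libraries held 7724 to 9927 CPM of B cell markers and day 7 libraries 42.0 to 109 CPM, and the part of these transcripts in the interaction was not tested.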

How the results depend on the processing

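Scaling to library totals was added after seeing the data, and the other settings were planned. Genes passing before transplant numbered 2413, against 4060 with DESeq2 and 3665 in the fit of all 12 libraries (14 to 2611 with 1 library left out). At day 7 they numbered 1283, against 3721 with DESeq2, 798 with upper-quartile scaling, 825 with library totals, 2850 with voom and limma, 2205 with no filter, 3257 with the replicate block and 137 in the fit of all 12 libraries (6 to 3209 with 1 left out). With 1 left out, 2761 to 5154 passed in WT, 2775 to 6197 in TCF-1 cKO and 3013 to 7297 for the interaction. Higher and lower calls at day 7 were 679 and 604, against 687 and 111 with upper-quartile scaling and 751 and 74 with library totals, and for the interaction 3665 and 2469, against 4865 and 720, and 4051 and 1228. Before transplant they were 1451 and 962, against 636 and 2070 with upper-quartile scaling. In WT they were 2483 and 2223, against 1852 and 3216 with upper-quartile scaling, which turned the balance, and 3022 and 1608 with the length offset. In TCF-1 cKO they were 3037 and 2676, against 4485 and 1644 with upper-quartile scaling and 5075 and 1434 with library totals.

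Members passing before transplant numbered 3, against 1 with voom and limma, 1 with the length offset and 1 with library totals (0 to 2 with 1 left out). At day 7 the count was 1, against 3 with DESeq2, 3 with voom and limma, 2 with the replicate block, and 0 with upper-quartile scaling, the length offset, all 12 libraries or library totals (0 to 2 with 1 left out). In WT it was 4, against 2 with upper-quartile scaling (2 to 4 left out). In TCF-1 cKO it was 2, against 4 with upper-quartile scaling and 5 with library totals (2 to 4 left out). For the interaction it was 5, against 2 and 3 (3 to 5 left out). The cause of these shifts was not tested. The labels give no pairing by replicate number. With the replicate block, Bad lost its call before transplant, Bcl2l11 gained one at day 7 and Bcl2 lost its call in WT.

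Fold changes that turned direction belonged to genes that did not pass. With library totals, Mcl1 was 0.022 at day 7. In TCF-1 cKO, Bcl2l11 was 0.41, Bad 0.39 and Bbc3 0.11, and for the interaction Bcl2l1 was 0.13, Bax 0.14 and Bak1 0.34. With upper-quartile scaling, Bax was -0.0035 in WT. In TCF-1 cKO, Bcl2l11 was 0.30, Bad 0.28 and Bbc3 0.0021, and for the interaction Bcl2l1 was 0.43, Bax 0.41 and Bak1 0.57. With no filter, Tcf7 was 0.018 before transplant and 0.049 in WT, Mcl1 0.067 in WT and Bax -0.086 in TCF-1 cKO. With the length offset, Tcf7 was 0.024 before transplant and 0.16 in WT, Mcl1 0.18 and Bad 0.020 in WT, and Bad 0.12 in TCF-1 cKO. Bax in TCF-1 cKO was -0.045 with DESeq2 and -0.0099 in the fit of 6 libraries, and Bak1 was 0.024 for the interaction with voom. With 1 library left out, Bbc3 ranged from -0.41 to 0.076 and Tcf7 from -0.25 to 0.11 before transplant. In WT, Mcl1 ranged from -0.28 to 0.25, Bid from -0.42 to 0.11 and Tcf7 from -0.18 to 0.21. In TCF-1 cKO, Bax ranged from -0.17 to 0.29, Bcl2l11 from -0.29 to 0.23 and Bad from -0.45 to 0.16. For the interaction, Bak1 ranged from -0.42 to 0.25 and Bad from -0.091 to 0.42.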
